A study of Mus musculus with 11 samples.

Results

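The neutrophil granule and calprotectin genes studied here were S100a8, S100a9, Lcn2, Retnlg, Ngp, Camp, Ltf, Elane and Mpo. They were taken by gene symbol from the array's platform annotation, with no measured value in the rule itself, and all 9 of the 9 were measured, among 22206 transcript clusters tested. Each had 1 transcript cluster. RNA came from the sinusoidal endothelial cells of the liver (LSEC), which form the sieve-like wall of its capillaries, and was hybridised to Mouse Clariom S arrays, giving 1 log2 signal per transcript cluster. The knockout group (5 arrays) came from mice with floxed Atg5 alleles that also carried VE-cadherin-Cre, a recombinase driven by an endothelial promoter, which removes the autophagy gene Atg5 where it is active. The wild type group (6 arrays) carried the same floxed alleles without Cre. Mice of both groups were 8 weeks old when a high fat diet began and had been on it for 2 weeks. The titles number the arrays of a group as biological replicates but do not name the animals behind them, so each p-value reflects only how far these samples spread, which may be partly technical. How the cells were isolated is not given in the sources used here.

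Neutrophils are short-lived white cells that store antimicrobial proteins in granules made in sequence while the cells mature in the bone marrow. The azurophil granules come first and hold myeloperoxidase and elastase, the specific granules follow with lactoferrin and cathelicidin, and the mature cell keeps high transcript levels of calprotectin but little of the granule enzymes. None of the 9 genes is an endothelial marker. Of these products lipocalin 2 is also made outside neutrophils, in the liver by hepatocytes during the acute phase response, and calprotectin is also made by monocytes. In bulk RNA, fewer cells of a type and less RNA per cell cannot be told apart.

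The arrays bore the markers of their label. The 15 listed LSEC markers all lay above background in every array, and their mean was 12.35 ± 0.07 in knockout (SD, n = 5) and 12.37 ± 0.09 in wild type (SD, n = 6). Array medians over all clusters ran from 6.61 to 6.75. The mean of the antigenomic control probes, which match no mouse sequence and serve here as the background level, ran from 4.67 to 5.17. Control rows named neg gave array means from 5.05 to 5.96. A signal above the antigenomic mean can lie below the neg mean, so counts above background depend on the control used. The number of arrays limits the precision. Over all clusters 0 passed limma's adjusted p of 0.05, and 1419 had an unadjusted p of at most 0.05.

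None of the 9 genes differed between the genotypes by the study's rule, which asks for a 1.5-fold difference and an unadjusted p no higher than 0.05. The study's design text names no test for it, so limma's p was used here and the calls may differ from the study's own. Of all clusters, 0.671% were higher in knockout by that rule and 0.356% were lower. By an adjusted p of at most 0.05, 0 of the 9 and 0% of all clusters passed, and 0 of the 9 had an unadjusted p of at most 0.05 in limma's fit, against 6.39% of all clusters. The median of the 9 log2 differences, knockout minus wild type, was -0.11, beside -0.02 over all clusters, with 3 genes above 0 and 6 below. The knockout and wild type values of all 9 genes overlapped, as they did for all but 0.473% of the clusters. The genes fell apart instead by how far they spread among arrays of the same genotype. S100a8, S100a9, Retnlg, Lcn2 and Ngp ranged over 5.86-fold to 13.6-fold between the lowest and the highest of the 11 arrays, while Camp, Elane, Mpo and Ltf ranged over 1.45-fold to 2.04-fold.

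**Figure D1:**
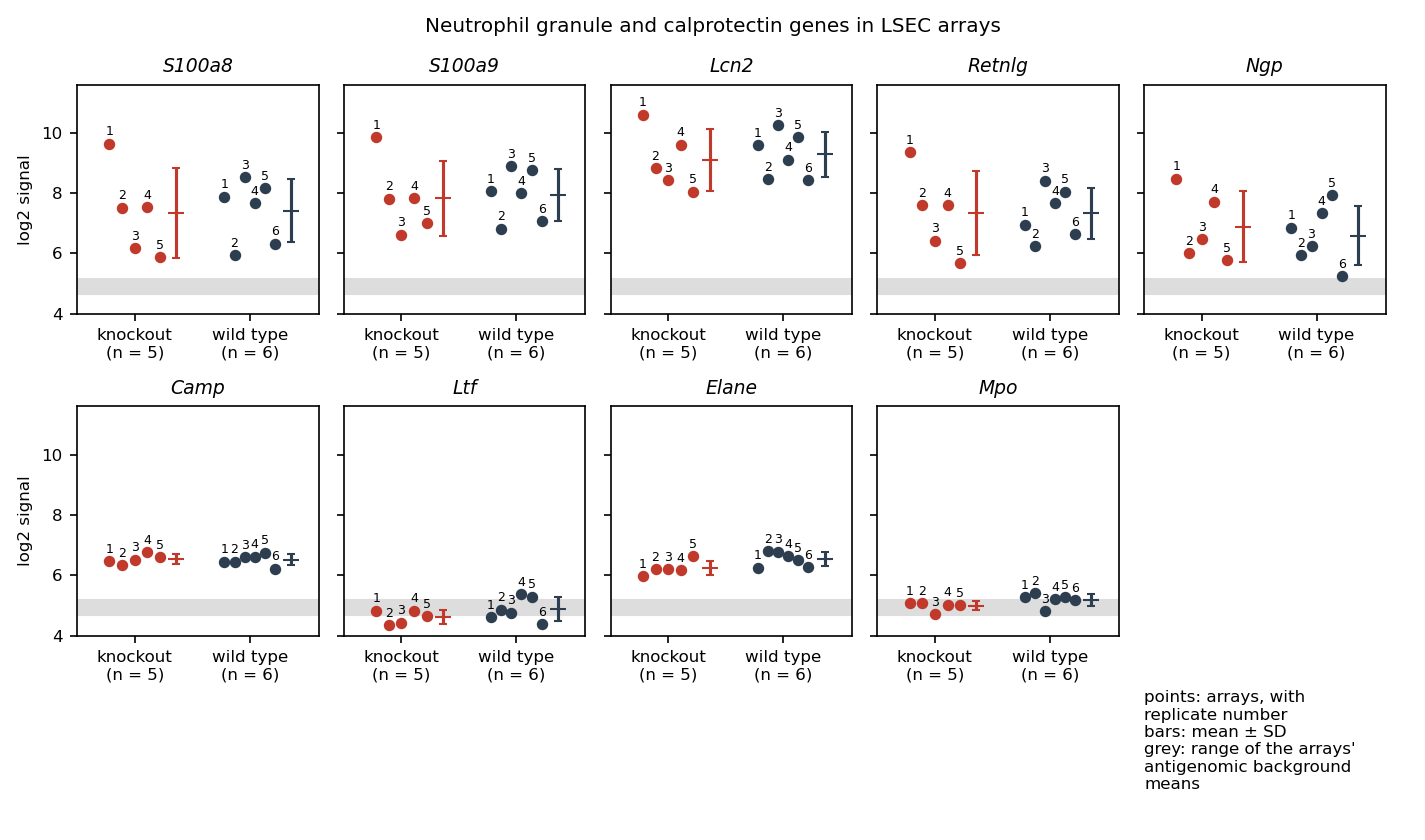
Log2 signal of the 9 genes on each array (points, with replicate number), knockout left of wild type, with mean ± SD bars and the range of the arrays' antigenomic background means in grey (4.67 to 5.17). S100a8, S100a9, Lcn2, Retnlg and Ngp spread widely in both genotypes and are highest on knockout array 1, while Camp and Elane vary little, Mpo lies at or just above the background band and Ltf mostly within or below it.

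Promoter sequences are printed for the 5 genes that spread widely and, beside them, for Camp, which shares Ngp's chromosome and granule stage but hardly varied. They are the 250 bases before the annotated start, 5′ to 3′ on the gene's strand, from RefSeq on GRCm38.p6, and all 9 genes had an entry. Capitals mark matches to TTNNGNAA on either strand (TTNCNNAA on the other), a loose pattern for C/EBP factors, which drive granule genes during neutrophil maturation. S100a8 lies at chr3:90668821-90669070 (plus strand) and S100a9 at chr3:90695722-90695971 (minus strand). Lcn2 lies at chr2:32387740-32387989 (minus strand) and Retnlg at chr16:48872358-48872607 (plus strand). Ngp lies at chr9:110419558-110419807 (plus strand) and Camp at chr9:109849457-109849706 (minus strand).
S100a8: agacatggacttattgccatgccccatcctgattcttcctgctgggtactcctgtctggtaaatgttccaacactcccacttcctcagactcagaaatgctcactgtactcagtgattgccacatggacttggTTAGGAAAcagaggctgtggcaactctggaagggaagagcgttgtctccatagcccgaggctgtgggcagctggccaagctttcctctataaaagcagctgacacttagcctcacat
S100a9: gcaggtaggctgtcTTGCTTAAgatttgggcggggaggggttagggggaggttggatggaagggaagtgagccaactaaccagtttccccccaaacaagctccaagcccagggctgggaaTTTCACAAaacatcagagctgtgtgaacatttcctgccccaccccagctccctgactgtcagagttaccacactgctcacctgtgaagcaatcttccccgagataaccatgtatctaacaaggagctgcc
Lcn2: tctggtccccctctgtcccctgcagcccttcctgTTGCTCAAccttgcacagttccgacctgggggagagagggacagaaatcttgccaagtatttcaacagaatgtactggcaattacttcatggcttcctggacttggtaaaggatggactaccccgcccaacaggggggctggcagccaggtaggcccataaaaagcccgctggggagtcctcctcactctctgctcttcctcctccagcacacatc
Retnlg: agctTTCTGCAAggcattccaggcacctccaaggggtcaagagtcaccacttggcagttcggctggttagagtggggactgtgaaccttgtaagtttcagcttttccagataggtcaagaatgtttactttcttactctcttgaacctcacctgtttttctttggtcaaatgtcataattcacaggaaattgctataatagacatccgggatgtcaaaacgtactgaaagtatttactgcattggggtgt
Ngp: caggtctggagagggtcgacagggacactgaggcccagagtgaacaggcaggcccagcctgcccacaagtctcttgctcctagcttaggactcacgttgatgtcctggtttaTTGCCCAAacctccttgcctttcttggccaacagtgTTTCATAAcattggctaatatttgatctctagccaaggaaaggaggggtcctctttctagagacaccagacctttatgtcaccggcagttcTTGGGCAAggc
Camp: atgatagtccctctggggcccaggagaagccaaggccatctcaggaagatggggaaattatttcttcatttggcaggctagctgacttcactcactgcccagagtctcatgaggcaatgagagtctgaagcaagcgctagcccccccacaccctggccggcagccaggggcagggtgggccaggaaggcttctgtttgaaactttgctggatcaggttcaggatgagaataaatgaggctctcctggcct

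The pattern was found in 6 of the 9 promoters and in 36.8% of the 32851 promoters of the table. It occurred once each in S100a8, Lcn2 and Retnlg, 2 times each in S100a9 and Ltf and 3 times in Ngp. Camp, Elane and Mpo had no match in this window. AGGAAG, which holds the GGAA core of ETS factors such as PU.1, was found on either strand in 6 of the 9 promoters and in 29.5% of all. Its matches were in S100a8, Lcn2, Camp, Ltf, Elane and Mpo. A match is a run of letters and not a measured binding site.

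Calprotectin is the dimer of S100A8 and S100A9, calcium-binding proteins that withhold zinc and manganese from microbes and act on Toll-like receptor 4. In knockout, S100a8 read 9.64, 7.52, 6.17, 7.53 and 5.87 on arrays 1 to 5. In wild type its lowest value was 5.94, its median 7.77 and its highest 8.52. Knockout array 1 was the highest of all 11 and knockout array 5 the lowest, so the knockout values lay on both sides of the whole wild type range. The means were 7.35 ± 1.49 in knockout (SD, n = 5) and 7.41 ± 1.04 in wild type (SD, n = 6), a log2 difference of -0.07 (SE 0.64, 95% interval -1.44 to 1.30, exact permutation p = 0.939, two-sided). That interval includes a 1.5-fold difference, 0.585 on the log2 scale, in either direction.

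S100a9 read 9.85, 7.82, 6.62, 7.84 and 7.0 in knockout, with a lowest value of 6.82, a median of 8.03 and a highest of 8.90 in wild type. The same arrays were high and low as for S100a8, except that knockout array 3 was lowest. The difference was -0.11 (SE 0.53, 95% interval -1.25 to 1.04, exact permutation p = 0.842). Without knockout array 1 the differences came to -0.64 for S100a8 and -0.61 for S100a9, and without knockout array 5 to 0.30 and 0.10, so the sign of both rested on single arrays.

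Lcn2 encodes lipocalin 2, which binds the iron carriers of bacteria. It was the brightest of the 9 genes, at 10.60, 8.82, 8.42, 9.61 and 8.05 in knockout, against a lowest value of 8.44, a median of 9.35 and a highest of 10.25 in wild type. Knockout array 1 and wild type array 3 were again the highest of their groups. Its log2 difference was -0.18 (SE 0.45, 95% interval -1.14 to 0.78, exact permutation p = 0.747). Retnlg encodes resistin-like gamma, a secreted protein of mouse myeloid cells. It read 9.36, 7.61, 6.42, 7.59 and 5.68 in knockout, with a lowest value of 6.25, a median of 7.31 and a highest of 8.41 in wild type. The means, 7.33 ± 1.40 in knockout (SD, n = 5) and 7.33 ± 0.85 in wild type (SD, n = 6), differed by 0.0037 on the log2 scale (SE 0.57, 95% interval -1.22 to 1.23, exact permutation p = 0.998). The sign of so small a difference turned below 0 with any of 6 arrays left out, and reached -0.50 without knockout array 1, against 0.42 when knockout array 5 was removed.

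Ngp, Camp and Ltf are transcripts of the specific granule stage, and all of them lie on chromosome 9. Ngp encodes neutrophilic granule protein, a relative of the cathelicidins. It read 8.48, 6.0, 6.47, 7.72 and 5.78 in knockout, with a lowest value of 5.25, a median of 6.55 and a highest of 7.93 in wild type. Wild type array 5 was the highest of its group for Ngp, where array 3 had been for calprotectin, and wild type array 6 was the lowest. The difference was 0.30 (SE 0.54, 95% interval -0.86 to 1.46, exact permutation p = 0.645) and turned to -0.10 without knockout array 1. Camp, the precursor of the antimicrobial peptide cathelicidin, stayed between 6.33 and 6.76 in knockout and between 6.22 and 6.75 in wild type. It differed by 0.02 (SE 0.12, 95% interval -0.24 to 0.27, exact permutation p = 0.855), an interval that lies inside 1.5-fold on both sides. Camp exceeded the background mean on all 11 arrays, but its mean level of 6.52 lay below the lowest array median, 6.61. Whether its flat values reflect a floor of its probes was not tested. Ltf, which encodes the iron-binding protein lactoferrin, read 4.35 to 4.83 in knockout and 4.37 to 5.38 in wild type. It exceeded the array's own background mean on 1 of 5 knockout and 2 of 6 wild type arrays, so its difference of -0.26 (SE 0.18) says little of expression.

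Elane and Mpo encode neutrophil elastase and myeloperoxidase, the enzymes of the azurophil granules. Elane had the smallest p of the 9 genes. It read 5.98, 6.21, 6.21, 6.17 and 6.64 in knockout, with a lowest value of 6.25, a median of 6.57 and a highest of 6.80 in wild type. The knockout arrays other than array 5 lay below every wild type array, and array 5 lay inside the wild type range. The mean level of Elane, 6.40, was below the lowest array median, 6.61, and a floor of its probes was not tested. Its difference was -0.30 (SE 0.15, 95% interval -0.61 to 0.02, limma adjusted p = 0.765, exact permutation p = 0.078). Mpo read 5.08, 5.08, 4.72, 5.03 and 5.01 in knockout, with a lowest value of 4.81, a median of 5.24 and a highest of 5.40 in wild type. It exceeded the array's own background mean on 4 of 5 knockout and 5 of 6 wild type arrays. Its mean level lay within 0.5 of that background on the log2 scale, and the difference was -0.21 (SE 0.12, exact permutation p = 0.104). Both differences kept their sign with every array left out, from -0.40 to -0.23 for Elane and from -0.28 to -0.14 for Mpo, and neither reached 1.5-fold.

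**Figure D2:**
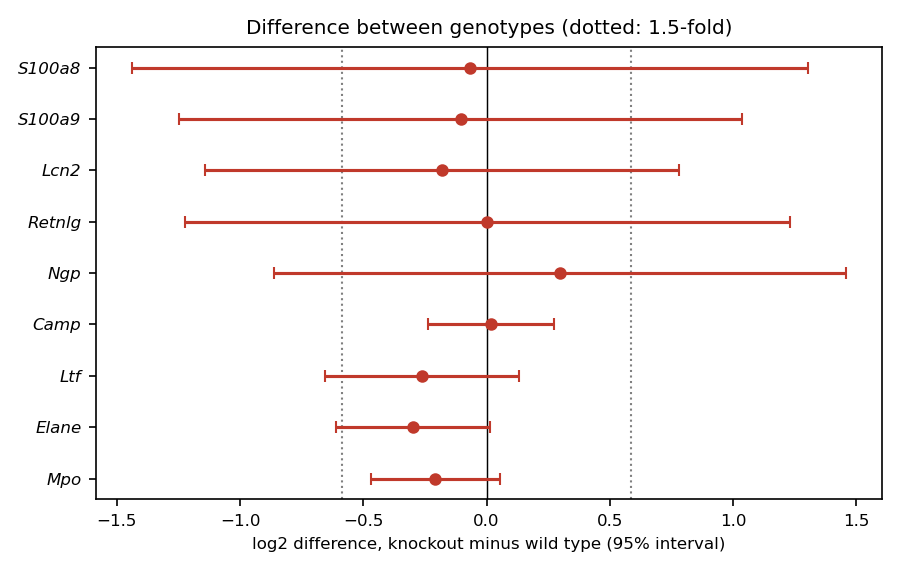
Log2 difference, knockout minus wild type, of each of the 9 genes with its 95% interval from limma; dotted lines mark a 1.5-fold difference. All intervals include 0, and those of S100a8, S100a9, Lcn2, Retnlg and Ngp also include 1.5-fold in both directions.

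The spread among arrays of the same genotype set 5 of the genes apart from most of the array. The within-genotype SD of S100a8 was 1.26 on the log2 scale, higher than in 99.9% of the clusters tested, where the median was 0.24. It was 1.12 for Retnlg, 1.06 for Ngp, 1.05 for S100a9 and 0.88 for Lcn2, and the lowest of these 5 still exceeded 99.4% of the clusters. Camp, with an SD of 0.17, exceeded 20.2% of the clusters, Mpo 23.7%, Elane 50.4% and Ltf 73.7%. Knockout array 1 contributed most to the spread of the 5 genes. Without it the SD was 0.98 for S100a8 and 0.72 for Lcn2, the highest and lowest of the 5, and Lcn2 still exceeded 97.7% of the clusters. A wide spread was not particular to these genes. With all 11 arrays, the median SD was 0.81 for the listed macrophage markers and 0.67 for hepatocyte markers. It was 0.65 for neutrophil surface genes, against 0.15 for LSEC markers.

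**Figure D3:**
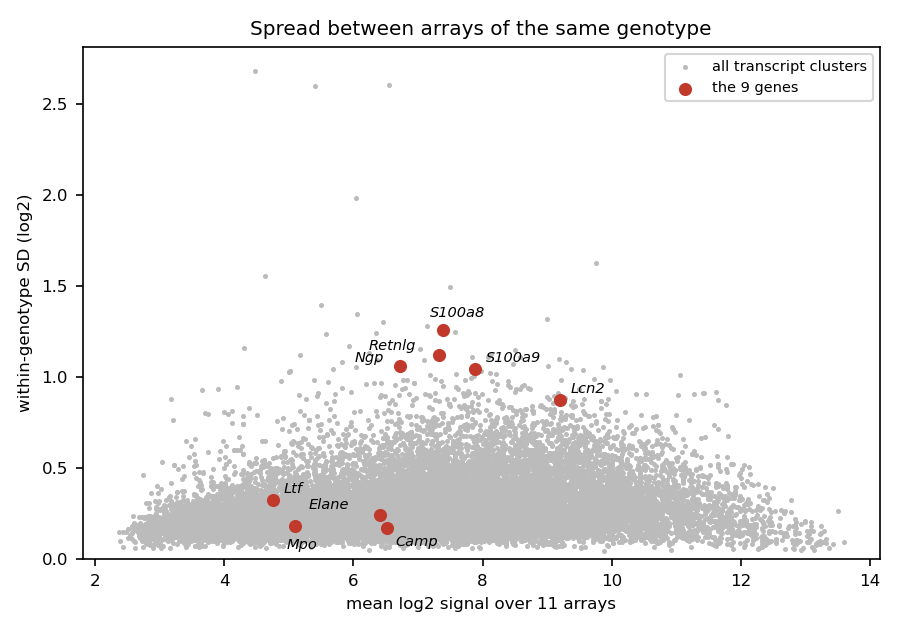
Within-genotype SD (log2) against mean log2 signal over the 11 arrays for all 22206 clusters (grey) and the 9 genes (red). S100a8, Retnlg, Ngp, S100a9 and Lcn2 lie above most clusters of any level, with SDs of 0.88 to 1.26, and Camp, Elane, Mpo and Ltf lie among the others.

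The 4 genes S100a8, S100a9, Lcn2 and Retnlg moved together over the arrays. All 9 genes were chosen with earlier results of these data known, so the p-values of their pairs describe these arrays and are no independent test. Of the 36 pairs of the 9 genes, the closest was S100a8 with S100a9 (Pearson r = 0.979 over 11 arrays, permutation p = 1e-05, the smallest that 100000 permutations can give, adjusted p = 0.00024 over the 36 pairs; Spearman rho = 0.964, permutation p = 4e-05, adjusted p = 0.00096). S100a8 followed Retnlg at r = 0.959 (permutation p = 2e-05, adjusted p = 0.00024; rho = 0.936, permutation p = 6e-05, adjusted p = 0.00096) and Lcn2 at r = 0.957 (permutation p = 3e-05, adjusted p = 0.00027; rho = 0.945, permutation p = 8e-05, adjusted p = 0.00096). With the 2 arrays most distant from the S100a8 median removed, the r of S100a8 was 0.975 with S100a9, 0.920 with Retnlg and 0.924 with Lcn2. Within the 6 wild type arrays alone the r was 0.980 with S100a9, 0.905 with Retnlg and 0.962 with Lcn2. S100a8 and S100a9 are neighbours on chromosome 3, on opposite strands, but Lcn2 and Retnlg lie on chromosomes 2 and 16. Each of the 4 promoters printed for them held the C/EBP pattern, as did 36.8% of all promoters. Ngp (3 matches) and Ltf (2 matches) held it too, and its part in the shared movement was not tested.

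Ngp followed S100a8, S100a9, Lcn2 and Retnlg less closely, and the remaining genes, Ltf among them, did not follow them detectably with 11 arrays. Ngp and S100a8 had r = 0.742 (permutation p = 0.0093, adjusted p = 0.042; rho = 0.736, permutation p = 0.012, adjusted p = 0.055), but r dropped to 0.545 once the 2 most distant arrays were removed, so the relation with S100a8 leans on them. Without the 2 arrays farthest from the S100a9 median, Ngp's r with S100a9 went from 0.720 to 0.617. With Lcn2 it rose from 0.749 to 0.863 without the 2 farthest from the Lcn2 median. With Retnlg it fell from 0.713 to 0.452 without the 2 farthest from the Ngp median. Camp and S100a8 had r = 0.228 (permutation p = 0.50, adjusted p = 0.65; rho = 0.292, permutation p = 0.38, adjusted p = 0.57), though r was 0.714 within wild type. Elane and S100a8 had r = -0.324 (permutation p = 0.33, adjusted p = 0.54; rho = -0.256, permutation p = 0.45, adjusted p = 0.60). Camp ran closer to Ltf, its fellow transcript of the specific granule stage, at r = 0.694 (permutation p = 0.017, adjusted p = 0.056; rho = 0.671, permutation p = 0.027, adjusted p = 0.097), which missed 0.05 after adjustment. Ltf exceeded the background mean on only 3 of 11 arrays, so little can be read from its r. Ngp had r = 0.627 with Ltf (permutation p = 0.04, adjusted p = 0.12) and 0.590 with Camp (permutation p = 0.057, adjusted p = 0.16).

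The 10 genes whose deviations from the genotype means most resembled those of S100a8 and S100a9 included 5 from the neutrophil lists. They were Mrgpra2b (r = 0.932 over 11 arrays), a receptor of the Mrgpr family, Clec4d (0.917), a myeloid C-type lectin, the stefin genes Stfa2l1 (0.919) and Stfa2 (0.903), inhibitors of cysteine proteases, and Adam8 (0.915), a metalloprotease of leukocytes. The other 5 were Ptpn11 (0.944), Cd24a (0.911), Uri1 (0.909), Ercc5 (0.901) and Rgs2 (0.898). These r describe the arrays measured, on each of which all genes were read from the same RNA. They were picked as the highest of 22206 clusters, so they carry no test. Without knockout array 1 they ran from 0.789 for Rgs2 to 0.917 for Ptpn11. Mrgpra2b read 9.13, 6.63, 5.95, 6.90 and 5.95 in knockout and between 5.94 and 7.65 in wild type, with a within-genotype SD of 0.98 and its wild type peak on array 5. Stfa2l1 and Stfa2 are close copies whose probes may not be separate, and both read below the background mean on 3 of 11 arrays. Ptpn11, in contrast, moved within 8.23 to 8.72, an SD of 0.09.

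**Figure D4:**
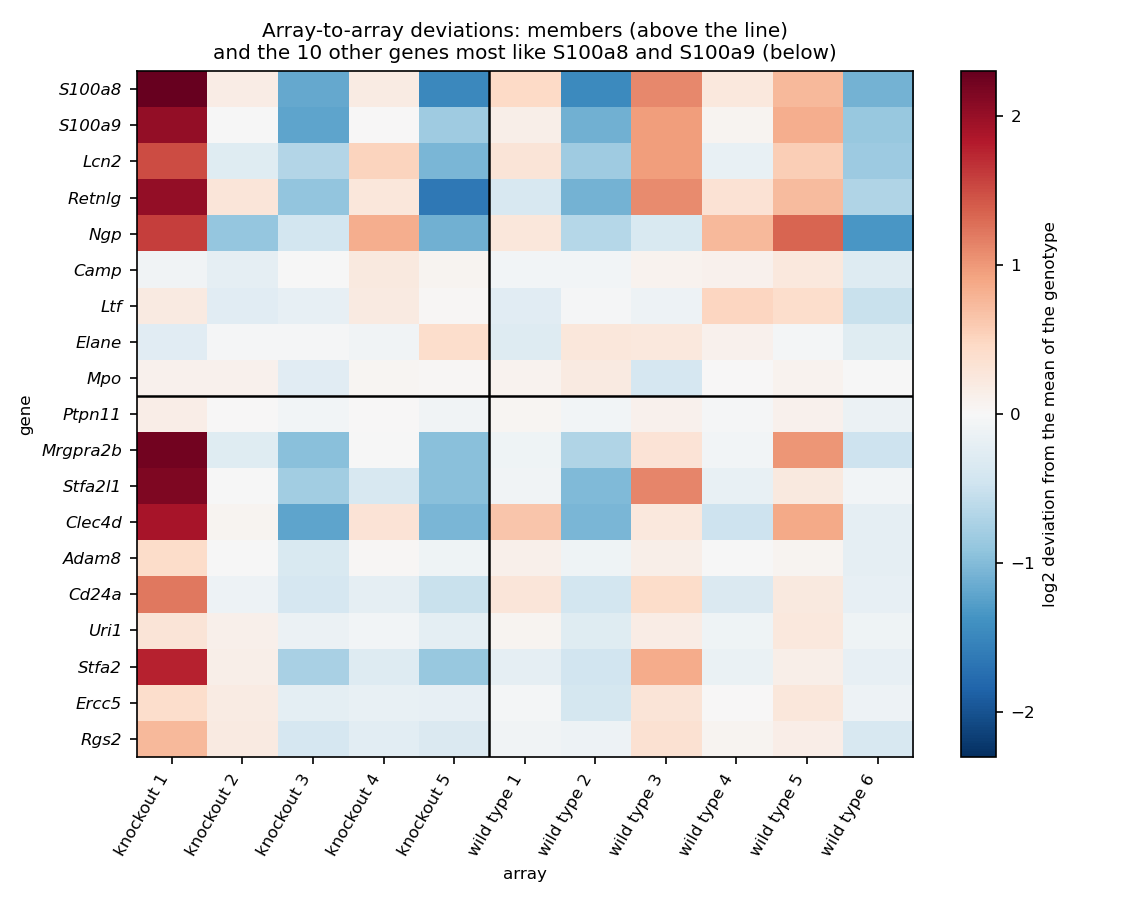
Deviation of each array from the mean of its genotype (log2, red above and blue below) for the 9 genes above the line and, below it, the 10 other genes most like S100a8 and S100a9, with knockout arrays left of wild type arrays. S100a8, S100a9, Lcn2 and Retnlg share their high arrays (knockout 1, wild type 3 and 5) and low arrays (knockout 3 and 5, wild type 2 and 6), and Camp, Ltf, Elane and Mpo are paler.

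The other neutrophil genes and related lists were counted by the study's rule, which 0.671% of all clusters met as higher and 0.356% as lower. Of 13 other granule genes measured, 1 was lower in knockout by the study's rule and 0 were higher, with a median log2 difference of -0.05. The gene was Hp, haptoglobin, which hepatocytes also make, at 8.11 in knockout and 9.26 in wild type (difference -1.15, SE 0.47, exact permutation p = 0.076). The call did not hold without knockout array 3, 4 or 5 or wild type array 3, 4 or 5, with -0.94 as the smallest difference (wild type array 3 left out). Prtn3, the proteinase of azurophil granules, differed by -0.13 (SE 0.11), and Lyz2, lysozyme of neutrophils and macrophages, by 1.08 (SE 0.56, 95% interval -0.12 to 2.28). In this list 1 gene was higher by the rule without knockout array 3 or wild type array 4 or 5. Of 12 neutrophil surface genes 0 met the rule in either direction, with a median of 0.16. The lectin Clec4e differed by 0.54 (SE 0.50, 95% interval -0.54 to 1.62), the platelet-activating factor receptor Ptafr by 0.45 (SE 0.39) and Cd177 by -0.12 (SE 0.12). Without knockout array 3, 1 surface gene met the rule.

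Of 14 further neutrophil genes 1 was higher by the rule. It was Acod1, the itaconate-making enzyme of activated myeloid cells, at 10.94 in knockout and 10.03 in wild type (difference 0.91, SE 0.29, limma adjusted p = 0.765, exact permutation p = 0.026). The call held with each array left out, with differences between 0.75 and 1.10. The other genes of smallest p in this list were below 0 without reaching 1.5-fold, the stefin Stfa3 at -0.41 (SE 0.17, exact permutation p = 0.039) and Wfdc21 at -0.48 (SE 0.21, exact permutation p = 0.084). Without knockout array 3, 2 genes of the list were higher by the rule, and without knockout array 1, 1 was lower. Of 5 NADPH oxidase genes, which make the oxidative burst of neutrophils and macrophages, 2 were higher by the rule, Cybb (1.44, SE 0.41, exact permutation p = 0.015) and Rac2 (0.65, SE 0.27, exact permutation p = 0.065). Ncf1, a cytosolic subunit, differed by 0.48 (SE 0.28). The list had 1 such gene when knockout array 1 was removed and 4 when knockout array 3 was. Rac2 did not meet the rule without knockout array 1 or 2 or wild type array 2, 3 or 6 (0.45 at the lowest), and Cybb met it with each array left out. Knockout arrays also had higher macrophage markers. All 14 measured markers met the rule, and 10 did without knockout array 2, with a list mean of 8.47 ± 1.0 in knockout (SD, n = 5) and 7.24 ± 0.51 in wild type (SD, n = 6). Their part in the oxidase and Acod1 values was not tested.

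Among 9 transcription factors and growth factors of granulocyte formation, 2 were higher by the rule. They were Runx1 (0.65, SE 0.23, exact permutation p = 0.039) and Spi1, which encodes PU.1 (0.80, SE 0.33, exact permutation p = 0.076), both also expressed in macrophages. Neither met the rule without knockout array 2 (Runx1 0.50, Spi1 0.56) or wild type array 1, and Spi1 also failed it without knockout array 1 or wild type array 2, 3 or 6. Cebpe, the factor of the specific granule stage, differed by 0.0067 (SE 0.16), and Gfi1 by -0.23 (SE 0.10). The Cebpe signal was weak, with a mean of 5.13 and values above the background mean on 9 of 11 arrays, which limits its reading. Of 8 neutrophil chemoattractants and growth factors, 1 was higher by the rule. It was Cxcl2 (0.69, SE 0.19, exact permutation p = 0.017), whose call was lost without knockout array 1 (0.57). Cxcl3 (0.39, SE 0.13) and Cxcl1 (0.41, SE 0.17) differed by less than 1.5-fold. Cxcl2 was highest on knockout array 1 (11.44), as S100a8 was, but the list mean of the 8 genes had r = 0.350 with S100a8 over the 11 arrays (permutation p = 0.29; rho = 0.209, permutation p = 0.54).

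Most relatives and receptors of the 9 genes spread less than calprotectin did. The 14 other S100 genes had a median within-genotype SD of 0.26, and the 11 of them that lie with S100a8 and S100a9 on chromosome 3 had SDs of 0.12 to 0.61. The highest SD was that of S100a16, above 96.0% of all clusters. None of the 14 met the rule, and their median difference was -0.10. Those of smallest p were S100g (-0.27, SE 0.12, exact permutation p = 0.039), S100a5 (-0.20, SE 0.15) and S100b (-0.15, SE 0.12), and S100b read below background on all 11 arrays. The resistin genes Retnla and Retnlb read below the background mean on all 11 arrays and Retn above it, at 5.61 in knockout and 5.64 in wild type. Of 6 receptors for calprotectin and lipocalin 2, 0 met the rule. Toll-like receptor 4, Tlr4, had the highest SD of them, 0.56, above 94.4% of all clusters, and differed by 0.05 (SE 0.29). Bsg, a receptor for S100A9, differed by 0.06 (SE 0.13), Ager by -0.12 (SE 0.13) and Lrp2, a lipocalin receptor, by -0.23 (SE 0.16). Of 6 inhibitors of neutrophil elastase measured, 5 were lower in knockout by the rule. All of them were antitrypsin genes of hepatocytes, Serpina1a, Serpina1b, Serpina1c, Serpina1d and Serpina1e. Their log2 differences ran from -1.54 for Serpina1e to -0.997 for Serpina1c, and the genes are close copies whose probes may not be separate. Of 10 acute phase genes, which hepatocytes express, 3 were lower by the rule, Hp, Fgb (-0.97, SE 0.35) and Orm1 (-0.75, SE 0.29), and the count was 1 without knockout array 4. Knockout arrays also had lower hepatocyte markers, 9 of 15 by the rule, with 6 when knockout array 4 was removed and 14 when knockout array 2 was, with list means of 8.67 ± 0.57 in knockout (SD, n = 5) and 9.48 ± 0.50 in wild type (SD, n = 6).

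S100a8 was set beside 20 measures per array, the means of the 18 other gene lists and of 2 sets of control probes. The lists were chosen with earlier results of these data known, so the p-values below describe these arrays and are no independent test. The surface list also holds Mrgpra2b and Clec4d, which were among the 10 genes most like S100a8 and S100a9. By Pearson's r it went most closely with the neutrophil surface genes (Pearson r = 0.915 over 11 arrays, permutation p = 0.00017, adjusted p = 0.0034 over the 20 measures; Spearman rho = 0.782, permutation p = 0.0063, adjusted p = 0.063). With the 2 arrays most distant from the S100a8 median removed, this r was 0.852, and within wild type it was 0.843. The further neutrophil genes followed at r = 0.870 (permutation p = 0.00038, adjusted p = 0.0038; rho = 0.791, permutation p = 0.0053, adjusted p = 0.063), with r = 0.759 without those 2 arrays and 0.692 within wild type. Neither rho passed 0.05 after adjustment, and by rho the further neutrophil genes were the closer list. The other granule genes had r = 0.667 (permutation p = 0.027, adjusted p = 0.18; rho = 0.573, permutation p = 0.071, adjusted p = 0.36), which missed 0.05 after adjustment. For monocyte markers r was 0.617 (permutation p = 0.044, adjusted p = 0.22; rho = 0.373, permutation p = 0.26, adjusted p = 0.58). For macrophage markers r was 0.088 (permutation p = 0.80, adjusted p = 0.86; rho = -0.100, permutation p = 0.78, adjusted p = 0.78). Knockout array 2, with the highest macrophage mean of all arrays (10.06), had S100a8 at 7.52, the knockout median. The NADPH oxidase genes had r = 0.591 with S100a8 (permutation p = 0.057, adjusted p = 0.23), with rho = 0.473 (permutation p = 0.15, adjusted p = 0.57).

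For hepatocyte markers r was 0.243 (permutation p = 0.47, adjusted p = 0.72; rho = 0.336, permutation p = 0.31, adjusted p = 0.62), and for LSEC markers it was 0.342 (permutation p = 0.30, adjusted p = 0.55; rho = 0.396, permutation p = 0.23, adjusted p = 0.57). The acute phase genes had r = 0.494 (permutation p = 0.13, adjusted p = 0.36; rho = 0.573, permutation p = 0.071, adjusted p = 0.36). Without the 2 most distant arrays that r was 0.712, and within wild type it was 0.869, above those of the neutrophil lists. The antigenomic background had r = -0.077 (permutation p = 0.82, adjusted p = 0.86; rho = -0.127, permutation p = 0.72, adjusted p = 0.78). The lowest r of the 20 measures was that of the erythroid and platelet markers, -0.471 (permutation p = 0.15, adjusted p = 0.36). Their rho was -0.318 (permutation p = 0.34, adjusted p = 0.62), and within wild type their r was -0.765. The part of other cell types and of cell isolation in the spread of S100a8 was not tested.

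**Figure D5:**
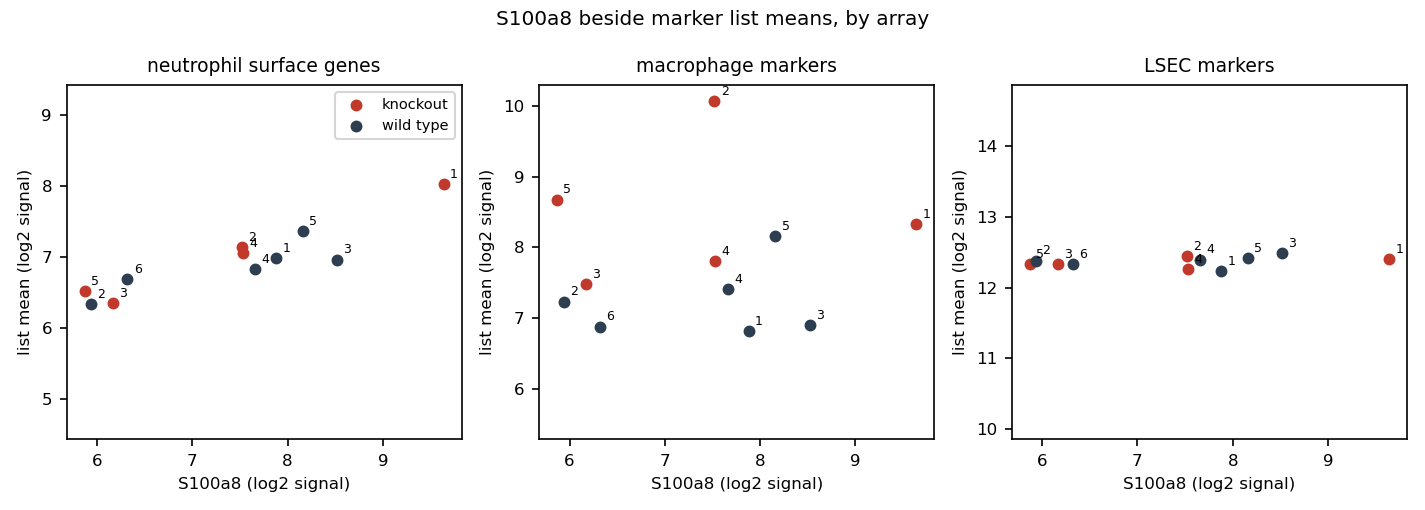
Log2 signal of S100a8 on each array against the mean log2 signal of the neutrophil surface genes, macrophage markers and LSEC markers, with axes of equal length and replicate numbers beside the points (knockout red, wild type dark). The neutrophil surface mean climbs with S100a8 (r = 0.915), the macrophage mean does not follow it (r = 0.088), and the LSEC mean stays nearly level.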

How the data were processed

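The authors deposited 1 log2 signal per transcript cluster and array, made with Affymetrix Expression Console and RMA per the submitters' processing notes; their versions are not stated. Per the labels' protocols, biotin-labelled cDNA was made from 100 ng of total RNA. RMA subtracts background, equalizes the distribution of signals between arrays and summarizes probes, which compresses weak signals. The genome build of the array annotation is not given in the sources used here.

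Arrays were grouped by title into 5 knockout and 6 wild type. The tests ran on 22206 transcript clusters, without the 6640 control rows. The platform annotation gave a single symbol to 19572 clusters. The other 2634 were treated as having no symbol, and the brightest cluster per symbol was used. The 9 symbols were unchanged in RefSeq by gene identifier.

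The genotype difference was fitted in R 4.3.3 by limma 3.58.1 (lmFit and eBayes, no other term), and p-values were adjusted over every cluster by Benjamini and Hochberg's method. Exact permutation tests were two-sided over 462 splits and cannot give a p under 0.0022. The step was tested on simulated data. Correlation p-values come from 100000 permutations of the arrays. Named were the 9 genes and the 10 genes most like S100a8 and S100a9. From each of 18 lists the up to 3 genes of smallest p and those meeting the study's rule were also named. Genes only in the other cell types' lists are not named, and those lists are given as counts, means, median SDs or correlations. Cebpe, Tlr4 and S100a16 were named after their values were seen. The members and lists were chosen with earlier results of these data known. Alternatives left out each array and changed the block, normalization, weights, variance model, dim-cluster filter and thresholds.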

Additional observations from a re-analysis of the deposited data

Results flagged for a closer look

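In 3 of 92 groups, those of 46 genes in each genotype, 1 array stood farther from the rest than Dixon's 95% criterion allows, which chance alone gives in about 1 of 20 groups. Mpo read 4.72 on knockout array 3, where the nearest other knockout array read 5.01, and 4.81 on wild type array 3, where the nearest other wild type array read 5.18. Both values lie at the background level. Cd24a, a surface glycoprotein of neutrophils, B cells and epithelia, read 8.04 on knockout array 1, where the nearest other knockout array read 6.72. S100a8, S100a9, Lcn2, Retnlg and Ngp were also highest on that array, without passing the criterion.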

How the results depend on the processing

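Over 19 settings the 9 genes were recomputed, and in 0 of 170 values did a gene meet the rule of fold and p. The median difference of the 9 genes lay between -0.31 without knockout array 1 and 0.08 without knockout array 5. Leaving out 1 array moved S100a8 from -0.64 to 0.30, S100a9 from -0.61 to 0.20, Lcn2 from -0.56 to 0.081, Ngp from -0.10 to 0.58, Camp from -0.042 to 0.068 and Retnlg from -0.50 to 0.42, so each changed sign. Elane, Mpo and Ltf kept theirs. Retnlg was also below 0 with repeated quantile normalization (-0.020) and array weights (-0.50). The replicate numbers of the titles did not pair the arrays: deviations of same-numbered arrays correlated between -0.32 and 0.39, and 0 of 5 knockout arrays were closest to their own number. With the replicate block, 158 clusters were higher and 92 lower by the rule, Retnlg came to -0.13 and Camp to -0.042, and Elane (-0.35) and Ltf (-0.36) passed an unadjusted p of 0.05 in limma's fit without reaching 1.5-fold. Elane also passed it without knockout array 5, wild type array 1 or wild type array 6, and with the control covariate below (-0.28), and Mpo passed it without wild type array 3. Over all clusters 149 were higher and 79 lower by the rule. These counts ran from 111 to 245 and from 37 to 138 with 1 array left out, were 99 and 146 with array weights and 46 and 14 at a fold of at least 2. Without wild type array 5, 1 cluster passed the adjusted p, and 0 to 1 did over all single arrays left out. The mean of the control rows named neg as a covariate was added after the data were seen and left all 9 genes short of the rule. Ltf had no value once clusters at background were left out. The causes of these changes were not tested. The weak signals of Mpo and Ltf limit what can be read from them.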
